A study of Mus musculus with 4 samples.

Results

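Of 16279 SMC3 binding summits on the mouse autosomes, 1324 (8.13%, exact 95% interval 7.72 to 8.56%) had a summit of SMC1B-LAP within 500 bp, and these shared sites are described here. Among the listed summits they were chosen by position alone. A member is a summit of the SMC3 list at a false discovery rate (FDR) of 0.1, on one of the 19 autosomes, with a summit of the SMC1B-LAP list at the same FDR no more than 500 bp away. The background share of autosomal SMC3 summits that meet this rule is therefore the same 8.13%. The other 14955 autosomal SMC3 summits serve as the comparison throughout. The SMC3 list held 17778 summits on all chromosomes, of which those outside the autosomes were not used.

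Cohesin is a ring-shaped protein complex that encloses DNA, holds sister chromatids together and, in meiosis, forms part of the axis from which chromatin loops emanate. SMC3 is one of the paired core subunits of every cohesin ring. Its partner is either SMC1A or the germline-specific SMC1B, which is needed for cohesion and normal axis length in meiotic cells. An SMC3 site may therefore carry rings with either partner, and a site found with both antibodies is a place where SMC3 and the tagged meiotic subunit were each enriched in the cell population.

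The study used spermatocytes, the meiotic cells of the testis, for chromatin immunoprecipitation followed by sequencing. Both targets came from the same kind of cells: C57BL/6 mice carrying a construct for SMC1B with a LAP tag at its N-terminus, whose testis cells were fixed with formaldehyde, sorted for GFP fluorescence and pooled. SMC3 was precipitated with a rabbit polyclonal antibody, and the tagged SMC1B with a goat antibody against the GFP in the tag. The tag is present in the cells of both libraries, so no untagged group enters the comparison. The promoter driving the construct, the age and number of the animals and whether untagged SMC1B remained are not stated in the labels. An input library for each target was not analysed here. Each target was represented by 1 library. There were no replicates, and every interval below covers only the counting of summits, which are not independent of each other. No test between groups was run. All coordinates are 1-based positions of the mm9 assembly, and no sequence or gene is assigned to them because no mm9 genome or annotation was used.

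Shared sites were tightly aligned. The median distance from a member to its nearest SMC1B-LAP summit was 14 bp (95% interval 14 to 16 bp), 25% of the members lay within 6 bp, and 75% lay within 35 bp. The distance fell between 0 and 10 bp for 510 members (38.5%), between 11 and 25 bp for 392 (29.6%) and between 26 and 50 bp for 126 (9.52%). Beyond that the counts were low. There were 51 members at 51 to 100 bp, and over steps of 100 bp the counts fell from 76 at 101 to 200 bp to 66 at 201 to 300 bp, 55 at 301 to 400 bp and 48 at 401 to 500 bp. The SMC1B-LAP summit had the higher coordinate at 664 members and the lower one at 633, and at 27 members (2.04%) both summits were the same base. The displacement thus had no preferred direction along the assembly. Summits of both targets were also each other's nearest neighbour in 1300 of 1324 members (98.2%, 97.3 to 98.8%).

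**Figure D1:**
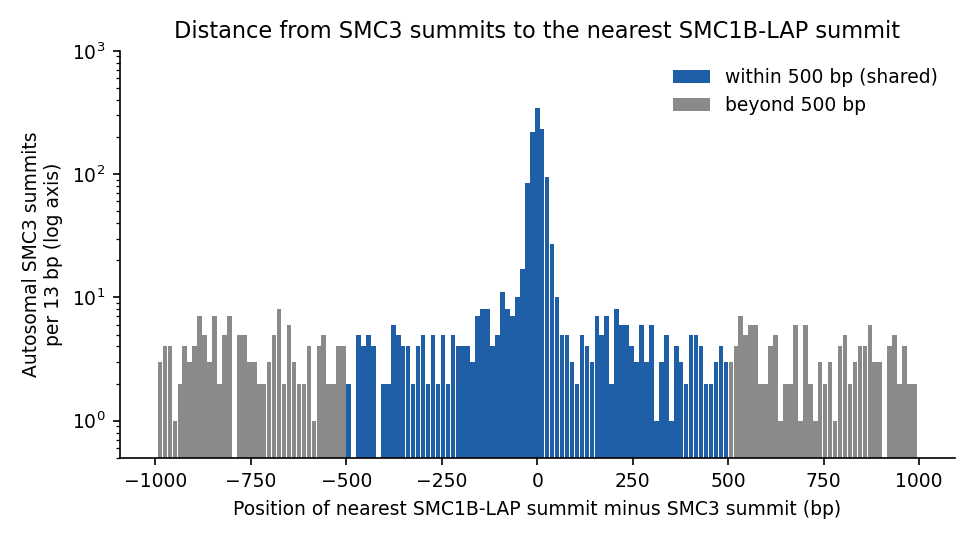
Histogram of the signed distance from autosomal SMC3 summits to the nearest SMC1B-LAP summit in bins of 13 bp, with the number of summits on a log axis. Blue bars are the shared summits within 500 bp and grey bars are summits beyond it. The 343 summits of the central bin stand far above the low counts past 100 bp on either side.

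The distance rule set the outer edge of the group, where few summits lie. Per 100 bp of distance, the members at 0 to 100 bp numbered 1068 and those at 101 to 500 bp 61.3, while SMC3 summits at 501 to 1000 bp, which are not members, numbered 53.6. Just inside the limit, at 451 to 500 bp, lay 23 members with a median SMC3 score of 3.02, of which 12 (52.2%, 30.6 to 73.2%) were in the SMC3 list at the stricter FDR of 0.001, which holds 40.8% of all autosomal SMC3 summits. Just outside, at 501 to 550 bp, lay 31 summits with a median score of 2.68, of which 10 (32.3%, 16.7 to 51.4%) were in it. The score is the −log10 of the q-value that the authors' peak caller gave to each peak, and it depends on depth, so it ranks summits within a list only.

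Members therefore fell into a large close group and a small distant one. The close group, within 100 bp, held 1079 members (81.5%, 79.3 to 83.6%). Their median SMC3 score was 8.24, and 840 of them (77.8%, 75.3 to 80.3%) were in the strict list. The distant group, at 101 to 500 bp, held 245 members (18.5%, 16.4 to 20.7%). Their median SMC3 score was 2.91, and 121 (49.4%, 43.0 to 55.8%) were in the strict list. Of the 268 summits at 501 to 1000 bp, 102 (38.1%) were in it. The distant members also had closer SMC3 neighbours, since 53 of them (21.6%, 16.6 to 27.3%) had another SMC3 summit within 1000 bp, against 63 of the close members (5.84%, 4.52 to 7.41%) and 64 of the summits at 501 to 1000 bp (23.9%). The median distance to the nearest SMC3 summit was 47734 bp in the close group, 10408 bp in the distant group and 4866 bp beyond the limit. On these counts the distant members stood nearer to the summits outside the rule than to the close members. The split at 100 bp was made after the distances had been seen.

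Membership of the strict SMC3 list was far more frequent among shared sites. In all, 961 of 1324 members (72.6%, 70.1 to 75%) were in it, where the background is 40.8% of all autosomal SMC3 summits (6649 of 16279). Among the other SMC3 summits the share was 5688 of 14955 (38%, 37.3 to 38.8%). The share was higher for members on 19 of 19 autosomes, and the 2 ranges did not overlap. It lay between 61.4% and 84.3% for members (mean 72.6 ± 6.38%, SD over 19 autosomes) and between 34.5% and 42.3% for the others (38.1 ± 1.95%). Read the other way, 961 of 6649 strict summits were shared (14.5%, 13.6 to 15.3%), against 363 of 9630 summits outside the strict list (3.77%, 3.4 to 4.17%). All 6649 strict summits were present in the FDR 0.1 list, so the strict list is a threshold on the same score.

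The SMC3 score followed the same order, although it played no part in the choice of members. Members had a median of 6.23 (5.79 to 6.66), with 25% below 2.68, 25% above 15.5 and 10% above 31.7. The other summits had a median of 2.36 (2.20 to 2.40), with 25% above 4.16 and 10% above 7.42. The member median was higher on 19 of 19 autosomes. The highest SMC3 score on the autosomes, 116, belonged to a member, and the highest among the others was 80.9. The members nonetheless reached down to the bottom of the list, with a lowest score of 1.03.

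Sharing rose with the SMC3 score from class to class, except between the classes at 1.5 to 2 and 2 to 3. Of the summits with a score of 1 to 1.5, 129 of 4457 were shared (2.89%, 2.42 to 3.43%). The share was 4.75% (61 of 1285) at 1.5 to 2, 4.45% (173 of 3888) at 2 to 3 and 6.97% (227 of 3256) at 3 to 5, and the intervals of the first pair of these overlap. It was 12% (249 of 2079, 10.6 to 13.5%) at 5 to 10 and 26.9% (244 of 906, 24.1 to 29.9%) at 10 to 20. At 20 or more, 241 of 408 summits were shared (59.1%, 54.1 to 63.9%). Even in that class 167 summits had no SMC1B-LAP summit within 500 bp at an FDR of 0.1. Low scores still contributed much of the group, because they are so common: 363 members had a score below 3, and 485 had a score of 10 or more.

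**Figure D2:**
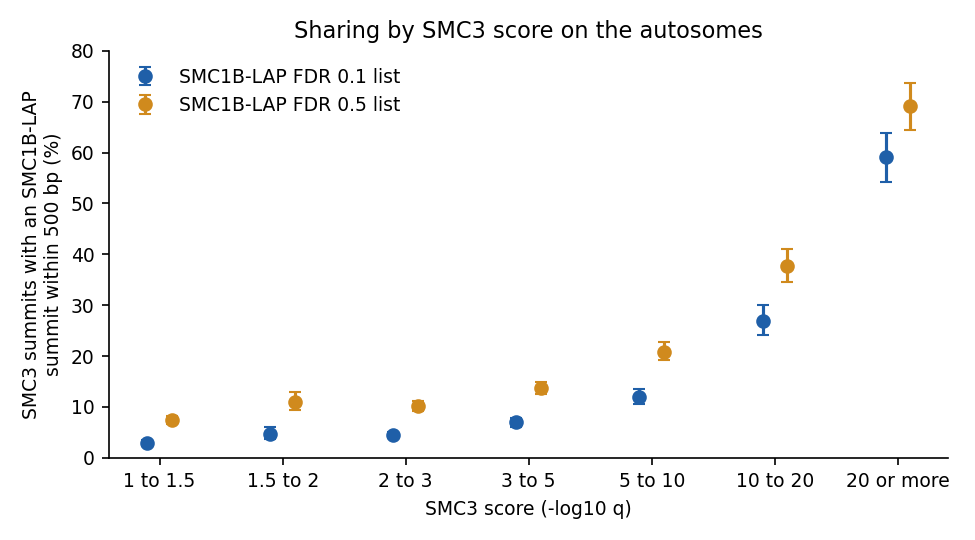
Percentage of autosomal SMC3 summits with an SMC1B-LAP summit within 500 bp, by class of SMC3 score (−log10 q). Blue points use the SMC1B-LAP FDR 0.1 list, which defines the members, and orange points the FDR 0.5 list. Bars are exact 95% intervals, and in the highest class the points stand at 59.1% and 69.1%.

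High-scoring members were also the better aligned ones. The median distance to SMC1B-LAP was 26 bp for members scoring 1 to 1.5, 28 bp at 1.5 to 2, 27 bp at 2 to 3, 19 bp at 3 to 5, 13 bp at 5 to 10, 12 bp at 10 to 20 and 9 bp at 20 or more. The part of each class within 100 bp went from 62.8% in the lowest to 97.5% in the highest. Over the 1324 members, which share both libraries, Spearman's rho between the SMC3 score and the distance was −0.32.

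The SMC1B-LAP summits next to members were stronger than those of the list at large. They had a median score of 1.86, with 25% above 3.71, 10% above 8.44 and a highest score of 85.2. The autosomal SMC1B-LAP list of 9522 summits had a median of 1.07, a value at which 4517 of its summits (47.4%, 46.4 to 48.4%) were tied. Of the members, 319 (24.1%, 21.8 to 26.5%) had a partner at that tied value. In partner classes, 461 members had a partner scoring 1 to 1.5, of which 66.2% (61.6 to 70.5%) were in the strict SMC3 list. Of the 109 members whose partner scored 10 or more, 93.6% (87.2 to 97.4%) were in it. Their median SMC3 score was 21.4, and their median distance was 9 bp. The autosomal SMC1B-LAP list held 140 summits of that score. The 109 counts members, and 1 SMC1B-LAP summit can be the partner of more than 1 member. Spearman's rho between a member's SMC3 score and its partner's score was 0.34.

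The longer SMC1B-LAP list (FDR 0.5) had 38022 autosomal summits, including all 9522. At that threshold 2368 of 16279 SMC3 summits (14.5%) had a summit within 500 bp. All 1324 members are among them by construction, which leaves 1044 of the 14955 others (6.98%, 6.58 to 7.40%) with a summit of this longer list nearby. That share was 9.51% (541 of 5688, 8.76 to 10.3%) for strict others and 5.43% (503 of 9267, 4.98 to 5.91%) for the rest. Members have at least 1 such summit by the rule, and 86 of them (6.5%) had 2 or more. Of the 1044 others with any, 19 had 2 or more. At an FDR of 0.5 many listed summits can be false calls, so a summit of this list alone does not establish SMC1B-LAP enrichment.

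Most members paired with a single partner. Within 500 bp there was 1 SMC1B-LAP summit of the FDR 0.1 list at 1285 members, 2 at 34 and 3 at 5. In the opposite direction, 22 SMC1B-LAP summits were the nearest partner of more than 1 member, which involved 45 members. All 5 members with 3 partners can be named. The member at position 3151068 of chromosome 6 had an SMC3 score of 14.9 and partners at −153, −21 and +436 bp, scoring 2.07, 7.13 and 3.85. The one at 115060761 of chromosome 9 scored 9.79, with partners at −136, −6 and +144 bp scoring 2.22, 4.87 and 4.31. At 39984282 of chromosome 17 the SMC3 score was 4.49 and the partners lay at −437, +5 and +233 bp. These 3 members each had a partner within 21 bp and were in the strict list. The other members, at 74916552 of chromosome 15 and 3004891 of chromosome 18, had SMC3 scores of only 1.08 and 1.43 and were outside the strict list. The chromosome 15 member had a partner on either side, at −86 and +251 bp, that scored 5.24 and 1.04, and a further one at −302 bp that scored 5.65. The chromosome 18 member also had a close partner, at +15 bp, and others at −324 and +470 bp, which scored 1.13, 1.62 and 1.5. The members on chromosomes 6 and 18 lie at the very start of the assembled sequence, next to the centromere.

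Shared sites occurred on every autosome and in proportions that varied little. There were between 20 and 111 members per autosome (median 72), or 0.343 to 0.759 per Mb of extent, measured between its outermost summits (mean 0.545 ± 0.0831, SD over 19). The shared share of SMC3 summits lay between 6.17% and 10.9%, with a median of 8.0% and a mean of 8.14 ± 1.01% (SD over 19). Chromosome 13 had the highest share, 89 of 820 summits (10.9%, 8.81 to 13.2%), followed by chromosome 17 with 59 of 624 (9.46%, 7.28 to 12%) and chromosome 11 with 61 of 668 (9.13%, 7.06 to 11.6%). Chromosome 19 had the lowest, 20 of 324 (6.17%, 3.81 to 9.37%), then chromosome 6 with 72 of 1046 (6.88%, 5.42 to 8.59%) and chromosome 4 with 81 of 1109 (7.30%, 5.84 to 9.0%). The interval of chromosome 13 alone lay above the share of all autosomes, and the intervals of the highest and lowest autosome overlapped.

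**Figure D3:**
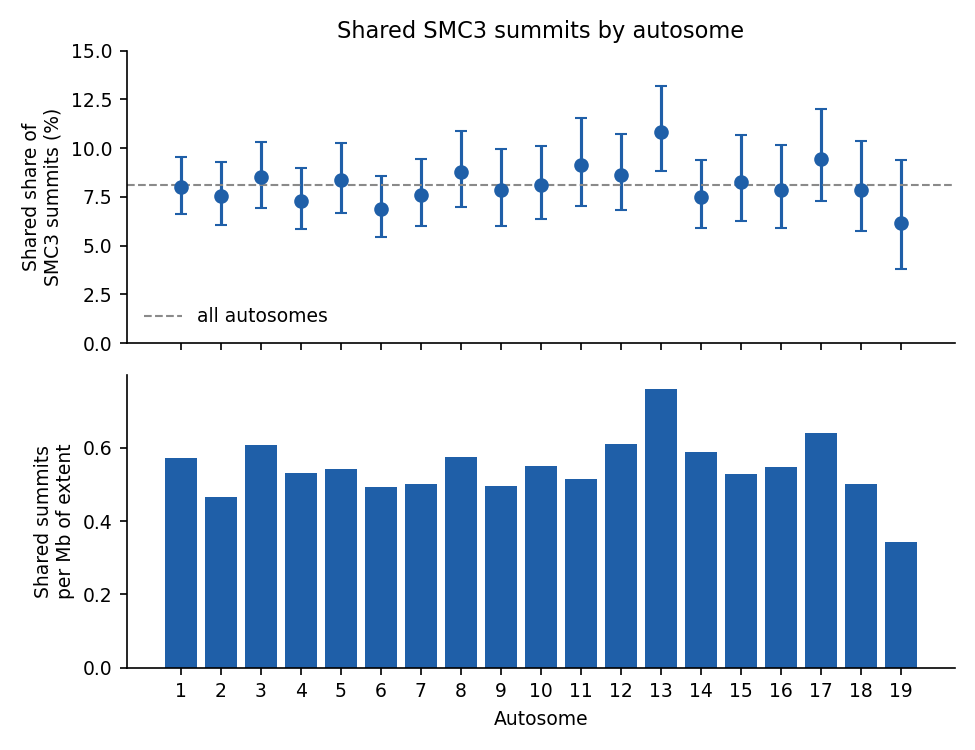
Upper panel: percentage of each autosome's SMC3 summits that were shared, with exact 95% intervals and the share of all autosomes (8.13%) as a dashed line. Lower panel: shared summits per Mb between the first and the last summit of the autosome. Chromosome 13 is highest and chromosome 19 lowest in both.

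On the strict SMC3 list chromosome 13 was again highest, with 67 of 336 summits shared (19.9%, 15.8 to 24.6%). The autosome with the lowest strict share had 11.2%. These 67 summits are among the 89 members of chromosome 13, so this lead is no separate support. Chromosome 13 was named because it was the highest of 19 autosomes, and its difference from the rest was not tested. Leaving out its fullest 1 Mb window, an alternative added after seeing the data, gave 9.67% (7.71 to 11.9%) of the remaining 796 summits, which is above the share of each other autosome, but its interval then includes the 8.13% of all autosomes. Across the 19 autosomes, members per Mb went with SMC1B-LAP summits per Mb (Pearson's r 0.66, Spearman's rho 0.73) and with the other SMC3 summits per Mb (0.48 and 0.52). Without chromosome 19, Pearson's r was 0.53 and 0.31. All points share both libraries and members count in the SMC3 list, so these are descriptions. The share of SMC3 summits that were shared had little relation to SMC1B-LAP density (r 0.24, rho 0.23).

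Along the autosomes the members were spread like the other SMC3 summits. The centromere of a mouse autosome lies at the start of the assembled sequence. Each autosome's extent was divided into 10 equal parts, so an even spread gives 10% in each. The first, centromere-proximal part held 158 members (11.9%, 10.2 to 13.8%) and 11.8% of the others (11.3 to 12.3%), with the member share higher on 9 autosomes and lower on 10. The last part held 128 members (9.67%, 8.13 to 11.4%) and 9.64% of the others, again higher on 9 and lower on 10. The first part thus held a similar share of the SMC3 summits outside the group. For members, the excess over 10% depended on the processing, as given below.

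Between the ends, the members departed most from the others in the second part, with 161 members (12.2%) against 10.6%, the third, with 106 (8.01%) against 9.66%, and the sixth, with 150 (11.3%) against 10.3%. The share of SMC3 summits that were shared was lowest in the third part, at 6.83% (5.63 to 8.21%). It was highest in the second, at 9.21% (7.90 to 10.7%). Both intervals include the 8.13% of all autosomes. The median member lay at 49.4% of its autosome's extent (47.0 to 52.2%), and the median other summit at 48.3% (47.4 to 49.0%). Single autosomes varied widely. The first part held 0 of the 20 members of chromosome 19 and 21.0% of those of chromosome 5, while for the others it ranged from 6.58% to 18.5%. The mean over autosomes was 11.4 ± 4.76% (SD over 19) for members and 11.5 ± 3.34% for the others.

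**Figure D4:**
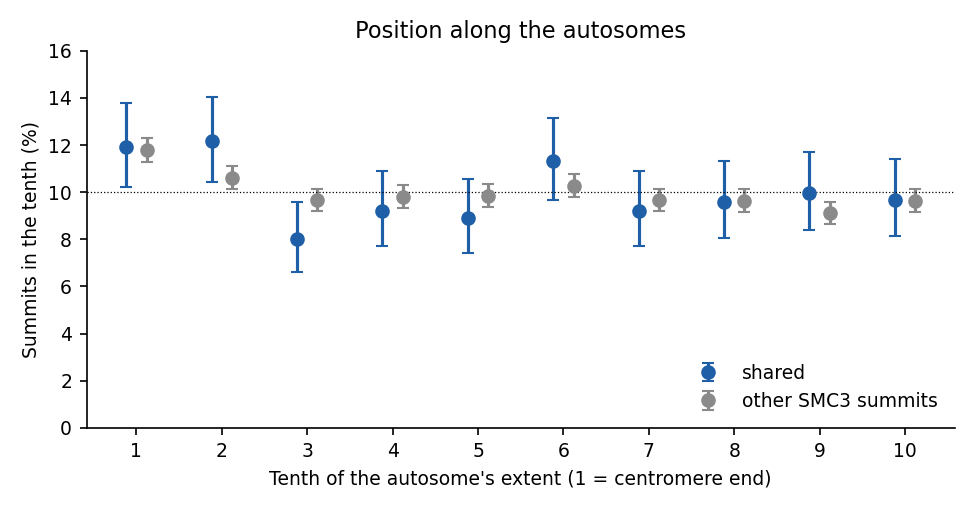
Percentage of shared summits (blue) and of other SMC3 summits (grey) in each of 10 equal parts of the autosomes, summed over 19 autosomes, with exact 95% intervals. The dotted line marks an even spread at 10%, and both groups stand near 12% in the first part.

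With the 500 bp rule, members and other SMC3 sites had nearly the same distance to their neighbours. The median distance to the nearest SMC3 summit of any kind was 40302 bp (34610 to 45091) for members and 40199 bp (38998 to 41316) for the others, longer for members on 9 autosomes and shorter on 10. This comparison depends on the rule. With a limit of 100 bp the medians were 47734 bp (42493 to 54062) for members and 39707 bp (38363 to 40828) for the others, and with 1000 bp they were 32357 bp (28377 to 36769) and 40804 bp (39646 to 42016). Members were thus the more isolated group under the narrow limit and the more crowded one under the wide limit, in both cases with intervals that do not overlap. At 500 bp, another SMC3 summit lay within 10 kb of 25.6% of members (23.3 to 28.0%) and 24.0% of the others (23.4 to 24.7%), and within 100 kb of 76.1% and 76.6%. At shorter distances the members had neighbours more often. Within 2 kb, 12.7% of members (10.9 to 14.6%) and 9.64% of the others (9.17 to 10.1%) had another SMC3 summit. Within 1000 bp, 116 members (8.76%, 7.29 to 10.4%) had another SMC3 summit, against 826 others (5.52%, 5.16 to 5.90%). Within 500 bp the counts were 64 (4.83%, 3.74 to 6.13%) and 419 (2.80%, 2.54 to 3.08%). The rule bears on this directly, because an SMC3 summit with a close neighbour may take its place in the group through an SMC1B-LAP summit that sits at that neighbour. Of the 116 members with a neighbour within 1000 bp, 53 came from the 245 distant members.

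**Figure D5:**
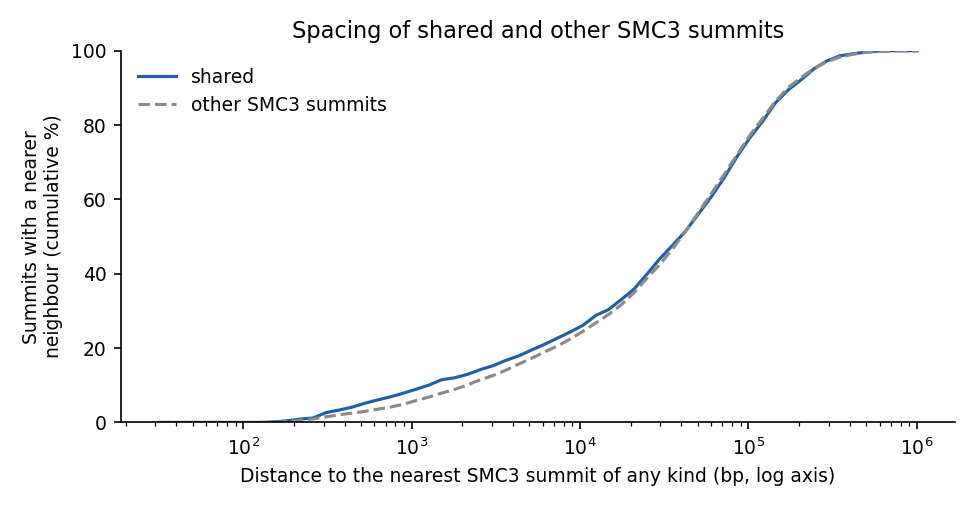
Cumulative percentage of shared summits (blue line) and of other SMC3 summits (grey dashed line) by the distance to the nearest SMC3 summit of any kind, in bp on a log axis. The lines run close together from about 10 kb upwards and stand apart below it, with 8.76% of the shared and 5.52% of the other summits having a neighbour within 1000 bp.

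Members tended to follow one another along the chromosome, mostly at short range. The next SMC3 summit was shared for 157 of 1322 members that had one (11.9%, 10.2 to 13.7%) and for 7.80% (7.37 to 8.24%) of 14938 others. Of members whose next SMC3 summit was at most 1000 bp away, 35 of 62 (56.5%) were followed by another member, against 27 of 427 others (6.32%), and here 1 SMC1B-LAP summit can serve both. From 1 to 10 kb the shares were 16.7% (21 of 126, 10.6 to 24.3%) after a member and 7.40% (120 of 1621, 6.18 to 8.79%) after another summit. They were 10.7% and 7.96% at 10 to 50 kb, 10.1% and 7.67% at 50 to 100 kb, 6.85% and 7.60% at 100 to 200 kb, and 8.33% and 8.25% beyond. Over all neighbours more than 1000 bp apart, a selection added after seeing the data, the shares were 9.68% (8.11 to 11.5%) and 7.84% (7.41 to 8.29%), whose intervals overlap.

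Stretches between members were long. The 1305 gaps between neighbouring members of an autosome had a median of 1.09 Mb (0.992 to 1.22 Mb), quartiles of 0.398 and 2.52 Mb, and a longest value of 14.2 Mb. A gap held a median of 7 other SMC3 summits and up to 88, and 157 gaps held none. By autosome the median gap ran from 0.597 Mb on chromosome 13 to 1.96 Mb on chromosome 19. Gaps over 5 Mb numbered 102, and 10 were over 10 Mb.

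The 5 longest gaps were not empty of either target. On chromosome 5 no member lay between 32841814 and 47040360, a stretch with 88 SMC3 summits, 23 of them strict, and 37 SMC1B-LAP summits. On chromosome 2 the stretch from 60240835 to 74276670 (14.0 Mb) held 64 SMC3 summits, 25 strict, and 37 SMC1B-LAP summits. Chromosome 19 had a stretch of 12.8 Mb from 21284270 to 34043795, with 60 SMC3 and 38 SMC1B-LAP summits. Chromosome 1 had one of 11.7 Mb from 132775454 to 144510294, with 61 and 28, and chromosome 7 one of 11.3 Mb from 27794176 to 39122407, with 67 and 31. Each of the 5 held summits of both lists. That no SMC3 summit inside had an SMC1B-LAP summit within 500 bp follows from the definition of a gap.

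On a fixed grid of 1 Mb windows, 964 of 2424 windows (39.8%) held a member, whereas 2400 held an SMC3 summit. Of the windows with members, 687 had 1, 231 had 2, 28 had 3, 10 had 4, 3 had 5, 4 had 6 and 1 had 12. The windows with 2 or more held 637 members (48.1%). At a mean of 0.546 members per window, some windows hold 2 or more by density alone, and an excess was not tested. The variance over the mean of the window counts was 1.26 for members. It was 2.37 for all SMC3 summits, which were denser, with a mean of 6.72 per window. The largest accumulation, 12 members, was in the 23 to 24 Mb window of chromosome 13, where 12 of 24 SMC3 summits were shared (50.0%, 29.1 to 70.9%). All 12 were in the strict list, with SMC3 scores from 3.75 to 27.0 (median 9.25), and all lay 2 to 35 bp from their SMC1B-LAP summit, whose scores ran from 1.07 to 13 (median 4.82). They spanned positions 23488951 to 23852956. The preceding windows, at 21 to 22 and 22 to 23 Mb, held 3 of 12 and 4 of 10, and the following one 0 of 4.

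Next came 4 windows with 6 members each. On chromosome 3, at 96 to 97 Mb, 6 of 13 SMC3 summits were shared. All 6 were strict, at 0 to 26 bp from SMC1B-LAP, with SMC3 scores of 4.16 to 27.0 and partner scores of 1.86 to 13.8, between positions 96072940 and 96962051. On chromosome 17, at 23 to 24 Mb, 6 of 16 were shared, 5 of them strict, between 23013459 and 23684362, with scores of 1.16 to 17.7 and distances of 4 to 126 bp. On chromosome 5, at 15 to 16 Mb, 6 of 23 were shared, 4 of them strict, with scores from 1.27 to 109. On chromosome 2, at 27 to 28 Mb, 6 of 10 were shared but only 2 lay within 100 bp of their partner. Every member was closely aligned in the windows on chromosomes 13 and 3, but not in those on chromosomes 17, 5 and 2.

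As background at the scale of Mb, that part of chromosome 13 holds the large cluster of replication-dependent histone genes, interspersed with tRNA genes, and that part of chromosome 3 holds a smaller histone gene cluster with tRNA genes. The part of chromosome 17 also holds a group of tRNA genes. This is general knowledge, added after the values of the windows were seen, and no annotation was read. Gene content is not given for the windows on chromosomes 5 and 2, which held 6 members each. The windows described are thus a selection. No summit was assigned to a gene, and a relation to these genes was not tested.

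Runs of neighbouring SMC3 summits that were all shared were short. There were 1035 members standing alone, 117 runs of 2, 8 of 3, 6 of 4 and 1 of 7. The run of 7 lay in the chromosome 13 window, from 23545330 to 23640613, over 95284 bp. Its members had 7 separate SMC1B-LAP partners at no more than 31 bp, all 7 were strict, and their SMC3 scores ran from 6.65 to 16.6. Runs of 4 differed in kind. That on chromosome 7, from 81374652 to 81480278, spread over 105627 bp with 4 partners and SMC3 scores of 2.68 to 37.0. That on chromosome 11, from 68853920 to 68875878, covered 21959 bp with 4 partners, and that on chromosome 1, from 173032925 to 173110814, covered 77890 bp with 3. The run on chromosome 2, from 27351895 to 27353398, covered only 1504 bp. It had 2 partners at up to 484 bp, so part of this run rests on SMC1B-LAP summits counted for more than 1 SMC3 summit. The other runs of 4, tied in length and named outside the rule so that all 6 are given, lay on chromosome 13 from 22003203 to 22113039 and on chromosome 19 from 45724620 to 46095761.

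The site that ranked best for both targets was picked on each autosome, by the sum of its SMC3 rank and the rank of its SMC1B-LAP partner. These ranks use the scores, so the values that follow are descriptions. The 19 sites had SMC3 scores from 41.4 to 109 (median 69.4) and partner scores from 4.81 to 75.8 (median 30.3). All 19 were within 50 bp of their partner, at 1 to 44 bp (median 13 bp), with the partner at the higher coordinate in 10 and the lower in 9. They lay anywhere from 1.69% to 88.4% of the extent of their autosome, and 270 to 305529 bp from the next SMC3 summit.

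Ranks within each autosomal list do not depend on the scales of the scores. The lists differ in length, however, with 16279 SMC3 and 9522 SMC1B-LAP summits, so equal rank numbers are not equal relative places. Both ranks were close at the best sites of chromosome 12 (10 for SMC3 and 8 for SMC1B-LAP), chromosome 2 (33 and 30) and chromosome 4 (18 and 29). At 20439508 of chromosome 13 the scores were 47.8 and 32.1, at +16 bp, with ranks of 60 and 26. At 25146468 of chromosome 3 they were 43.8 and 15.7, at +7 bp, with ranks of 86 and 77, and at 33002059 of chromosome 16 they were 55.3 and 15.2, at +9 bp, with ranks of 39 and 83.

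At the best site of chromosome 17 the SMC1B-LAP summit had rank 5 and the SMC3 summit rank 49. The SMC1B-LAP rank number was also the smaller one on chromosome 6 (3 against 33) and chromosome 9 (11 against 21). The same order held on chromosomes 2, 3, 12 and 13, given above. Because the SMC1B-LAP list is shorter, the slightly smaller numbers on chromosomes 2, 3 and 12 are no better relative places. On the remaining autosomes the SMC1B-LAP summit ranked further down its list than the SMC3 summit. The widest such differences were at the following 6 sites, where it was still high among 9522. At 122216374 of chromosome 1 the SMC3 score was 41.4 (rank 98) and the SMC1B-LAP score 4.81 (rank 417), at −7 bp. At 63122165 of chromosome 15 they were 52.0 (47) and 8.33 (189), at +33 bp, and at 5200489 of chromosome 11 they were 64.9 (25) and 11.1 (120), at −16 bp. At 103864013 of chromosome 14 they were 88.3 (11) and 14.1 (93), at +20 bp, and at 84177453 of chromosome 7 they were 75.8 (18) and 15.2 (80), at +23 bp. At 21284270 of chromosome 19 they were 81.4 (12) and 19.4 (63), at −29 bp, and this site forms one edge of the 12.8 Mb stretch without members. The best site of chromosome 13 lies outside its crowded 23 to 24 Mb window. That of chromosome 5, at 15337549, lies inside a crowded window, with an SMC3 score of 109 and an SMC1B-LAP score of 44.8.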

How the data were processed

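ChIP-seq peak summits of SMC3 and SMC1B-LAP from mouse spermatocytes were analysed, with 1 library per target. Per the submitters' processing notes, Bowtie2 0.12.8, MACS2 and mm9 were used. How input was used, duplicates were treated and peaks were thresholded at first is not given in the sources used here. The deposited files list 1-base summits with a score, read as the authors' −log10 q-value because each list's lowest score lies just above the −log10 of its FDR. Read depth is unknown, since the files hold no counts.

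Distances, fixed windows of 1 Mb and 100 kb, runs and gaps were computed with Python 3.11.15, numpy 2.4.6, scipy 1.17.1 and pandas 2.3.3, and plotted with matplotlib 3.10.9. Each autosome's extent runs from its first to its last summit. Shares have exact (Clopper-Pearson) 95% intervals and medians binomial ones. No p-values were computed, because members were chosen by position and targets have 1 library each. The count of shared summits, their offset and the nearest distances were tested on simulated data. Simulated SMC3 summits were never closer than 1000 bp, so close neighbours were not covered. Windows, runs, gaps, parts of the autosomes, ranks and intervals were not tested in this way. Members, lists and named regions were chosen with earlier results of these data known. The regions named are, by rule, the best-ranked member of each autosome, the 5 fullest 1 Mb windows, the 5 longest runs and 5 longest gaps (ties by chromosome and position; the other runs of 4 were added after their values were seen), members with 3 or more partners, and the 3 autosomes with the highest and lowest share. Alternatives varied the distance, the lists, tied scores, thinning and crowded windows.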

Additional observations from a re-analysis of the deposited data

How the results depend on the processing

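Of 91 values over all autosomes recomputed under the alternatives, 53 stayed within the interval of the reported value and 38 moved. Of 43 values of the 6 named autosomes, 25 stayed and 18 moved. At 100 bp the shared share was 6.63% (1079 members), its strict share 77.8%, the nearest SMC3 distance of members 47734 bp (others 39707), the next summit shared 8.44% after a member and 6.49% after another, the median distance 11 bp and the median autosome share 6.60%. At 1000 bp (1592 members) these were, in the same order, 9.78%, 66.8%, 32356.5 bp (others 40804), 16.7%, 9.03%, 19 bp and 9.51%. With the SMC3 FDR 0.001 list (961 members) the shared share was 14.5%, the nearest SMC3 distance 111125 bp for members and 107889 bp for others, the next summit shared 16.9% and 14.1%, the first part of the autosomes 10.8% of others, the median distance 13 bp and the median autosome share 14.7%; its strict share is 100% by construction and was not recomputed. With the SMC1B-LAP FDR 0.5 list (2368 members) the shared share was 14.5%, the strict share 63.4% and 37.0%, the next summit shared 17.0% and 14.1%, the median distance 19 bp and the median autosome share 14.0%. Without SMC1B-LAP summits at the tied score (1007 members) the shared share was 6.19%, the next summit shared 5.89% after another summit, and the median autosome share 5.96%. With 1 SMC3 summit per 10 kb the nearest SMC3 distance was 55234.5 bp for members and 52504 bp for others, and the next summit shared after a member 8.68%, against 7.94% after another. Without the 25 most crowded 1 Mb windows the nearest SMC3 distance of others was 42551 bp and their first part 11.1%. With neighbours over 1000 bp apart, added after seeing the data, the next summit shared after a member was 9.68%.

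The strict share stayed higher for members under each alternative that could give it. The first part of the autosomes held 10.8% of members (9.16 to 12.7%) without crowded windows and 10.6% (8.74 to 12.7%) with the strict list. Both intervals include the 10% of an even spread. So do those at 100 bp, without the tied score and with 1 summit per 10 kb. Those at 1000 bp and with the FDR 0.5 list do not. The excess of shared summits after a member shrank to 8.68% against 7.94% with 1 summit per 10 kb, so it rests mostly on close neighbours. The order of the nearest SMC3 distance varied. Members had the longer median as reported, at 100 bp and with the strict list. The same held with 1 summit per 10 kb and without crowded windows. Members had the shorter median at 1000 bp, with the FDR 0.5 list (37235 against 40459 bp) and without the tied score (38669 against 40297 bp). Only at 100 bp and at 1000 bp did the intervals of members and others not overlap, so elsewhere the order is unsettled. Chromosome 4, among the lowest shares, had 15.7% with the strict list, above that list's share over all autosomes, 14.5%. With 1 library per target no value has a replicate check, and an SMC3 summit without an SMC1B-LAP summit is below that list's threshold at a depth that is unknown. No paired analysis was possible because each group has 1 library, so the groups share a single replicate number, and the results come from no test.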
